A study of Mus musculus with 50 samples.

Results

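The 10 genes described here code for transcription factors that give medium spiny neurons (MSNs) their identity: *Ebf1*, *Isl1*, *Foxp1*, *Foxp2*, *Bcl11b*, *Sp9*, *Six3*, *Zfp503*, *Ikzf1* and *Rarb*. They were chosen by symbol, and all 10 were found among the 24552 genes of both count tables and passed the filter on low counts in every comparison. Their counts came from RiboTag (RT) mice, in which Cre recombinase switches on an HA-tagged ribosomal protein, so that an antibody to HA pulls down ribosomes with their mRNA from the Cre-expressing cells only. This precipitate (IP) was sequenced as D1-IP in RT; D1-Cre mice and as D2-IP in RT; D2-Cre mice, and the supernatant that remained was sequenced as input, which holds RNA of every cell type in the tissue.

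All mice were on a C57BL/6 background and carried the RT allele, and the tissue was the nucleus accumbens (NAc). The Cre lines were bacterial artificial chromosome transgenics, FK150 for the D1 receptor gene and ER44 for the D2 receptor gene, so that any cell with transgene activity is sampled, whether or not it is an MSN. Mice of 8 to 12 weeks met an aggressive CD1 male daily for up to 10 days, and were then sorted by a social interaction test into resilient (Res) and susceptible (Sus) mice, beside controls (Con) that met no aggressor. Each sample pooled tissue of 2 mice. There were 4 D1 Con, 4 D1 Res, 5 D1 Sus, 5 D2 Con, 5 D2 Res and 5 D2 Sus IPs, and 3 inputs for each of these 6 groups. A further 4 D1-IPs came from RT; Sirt1-floxed; D1-Cre males without stress (Sirt1-KO), in which the deacetylase gene *Sirt1* is meant to be deleted in Cre-expressing cells. These were set against the 4 D1 Con IPs. No age is given for the Sirt1-KO mice, so that whether they matched D1 Con in age is not known. The sources used here do not say whether these 4 IPs were prepared or sequenced together with D1 Con. A difference of genotype and one of preparation or sequencing cannot be told apart.

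MSNs are the GABAergic projection neurons of the striatum and fall into a class with D1 dopamine receptors and one with D2 dopamine receptors. Both arise from the lateral ganglionic eminence, where *Foxp1*, *Foxp2*, *Bcl11b*, *Zfp503* and *Rarb* act broadly in striatal neurons, *Ebf1* and *Isl1* are known for the D1 class, and *Sp9* and *Six3* for the D2 class. *Ikzf1* codes for Ikaros, best known from lymphocyte development and also described in striatal neurons that make enkephalin. Much of this work concerns embryos, whereas the counts given here come from adult tissue.

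Levels are given as CPM, which is counts per 1e6 counts on genes after TMM normalization. The counts on genes summed to between 21591075 and 31009626 in the 28 IPs and to between 18384265 and 28179940 in the 18 inputs. At these depths *Ikzf1* had 5 to 34 counts in an IP, whereas *Ebf1*, the next lowest, had 29 or more in each of the 28 IPs. The 4 D1 markers *Drd1*, *Pdyn*, *Tac1* and *Chrm4* summed to 1101 to 1553 CPM in D1-IPs and 396 to 638 CPM in D2-IPs, and the 4 D2 markers *Drd2*, *Penk*, *Adora2a* and *Gpr6* to 2061 to 3470 and 5646 to 7998 CPM. Each IP class thus held the markers of its own class at a higher level, and those of the other class were still present. In inputs the D1 markers summed to 449 to 703 CPM and the D2 markers to 776 to 1324 CPM. D1-IPs therefore lay above all inputs for both sets of markers, whereas D2-IPs did so for the D2 markers only. Which cells carry the D2 markers of D1-IPs was not tested. No pair of libraries within a group agreed within sampling noise.

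The stretches just before the start sites of the 4 genes that set the D1-IPs and D2-IPs apart most are shown, so that their bases can be seen beside their levels. They are 249 bases each from RefSeq on GRCm38.p6, written 5′ to 3′ on the strand of the gene. The window lies at chr11:44619978-44620226 (+) for *Ebf1*, which is the second start listed for that gene, at chr13:116309690-116309938 (−) for *Isl1*, at chr2:73271676-73271924 (+) for *Sp9* and at chr17:85620584-85620832 (+) for *Six3*. Capitals mark a GC box (GGGCGG, the core bound by Sp-family factors).
Ebf1: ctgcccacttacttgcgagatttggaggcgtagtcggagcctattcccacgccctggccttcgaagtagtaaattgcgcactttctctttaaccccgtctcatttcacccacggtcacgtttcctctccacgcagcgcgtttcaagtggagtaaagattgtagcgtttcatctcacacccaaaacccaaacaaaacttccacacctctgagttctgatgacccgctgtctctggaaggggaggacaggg
Isl1: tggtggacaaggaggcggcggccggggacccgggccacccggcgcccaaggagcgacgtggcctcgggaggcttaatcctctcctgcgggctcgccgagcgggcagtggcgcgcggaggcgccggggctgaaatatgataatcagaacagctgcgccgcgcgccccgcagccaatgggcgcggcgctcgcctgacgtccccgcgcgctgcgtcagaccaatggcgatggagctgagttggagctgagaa
Sp9: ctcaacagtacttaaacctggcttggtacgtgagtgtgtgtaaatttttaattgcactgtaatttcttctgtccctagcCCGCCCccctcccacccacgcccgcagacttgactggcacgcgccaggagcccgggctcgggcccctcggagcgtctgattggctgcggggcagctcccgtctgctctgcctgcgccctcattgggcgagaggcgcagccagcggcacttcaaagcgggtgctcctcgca
Six3: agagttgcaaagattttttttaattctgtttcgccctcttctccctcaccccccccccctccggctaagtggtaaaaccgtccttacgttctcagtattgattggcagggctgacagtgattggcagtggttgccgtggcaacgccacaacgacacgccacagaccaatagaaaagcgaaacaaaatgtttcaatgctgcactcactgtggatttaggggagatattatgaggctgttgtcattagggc
The GC box of *Sp9* lay 170 bases before its start. Over both strands of all 32851 RefSeq promoter windows of this length, 32.6% held a GC box. None of the *Ebf1*, *Isl1* and *Six3* windows shown held that box, the palindromic EBF consensus site (in 0.779% of all windows), a forkhead site (TGTTTAC, in 3.15%), a homeobox core (TAATTA, in 4.83%), the retinoid receptor core (AGGTCA, in 14% of windows) or a TATA box (TATAAA, in 12.4%). The GC content was 71.1% for *Isl1*, 62.2% for *Sp9*, 52.2% for *Ebf1* and 48.6% for *Six3*, against a median of 52.2% over all windows. RefSeq windows were found for 9 of the 10 genes, without *Foxp2*.

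The levels of the 10 genes differed widely from each other. To compare genes, CPM was divided by the length of the annotated exons in kb (GENCODE vM21, GRCm38). *Bcl11b*, a zinc finger gene also called Ctip2, was highest, at 68.3 ± 4.51 CPM per kb in D1-IPs (SD, n = 13) and 82.6 ± 5.39 in D2-IPs (SD, n = 15). The forkhead gene *Foxp1* followed at 34 ± 3.12 and 49.1 ± 3.98 CPM per kb, and the retinoic acid receptor gene *Rarb* at 23.2 ± 2.6 and 28.6 ± 2.34. The homeobox gene *Six3* reached 16.6 ± 1.77 CPM per kb in D1-IPs and 27 ± 1.75 in D2-IPs, so that in D2-IPs it did not differ from *Rarb* beyond their spread. *Foxp2* and *Zfp503* lay within each other's spread, at 11.2 ± 0.993 and 11 ± 1.29 CPM per kb in D1-IPs and 11 ± 1.55 and 11.7 ± 0.673 in D2-IPs.

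At the lower end the order depended on the cell class. *Isl1*, at 6.19 ± 0.659 CPM per kb, stood above *Sp9*, at 4.26 ± 0.455, in D1-IPs. In D2-IPs *Sp9* reached 10.9 ± 0.936 CPM per kb, within the spread of *Foxp2* and *Zfp503*, and *Isl1* stood at 2.54 ± 0.606. The lowest were *Ebf1*, at 1.28 ± 0.227 CPM per kb in D1-IPs and 0.186 ± 0.0789 in D2-IPs, and *Ikzf1*, at 0.126 ± 0.0444 and 0.0874 ± 0.0324.

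**Figure D1:**
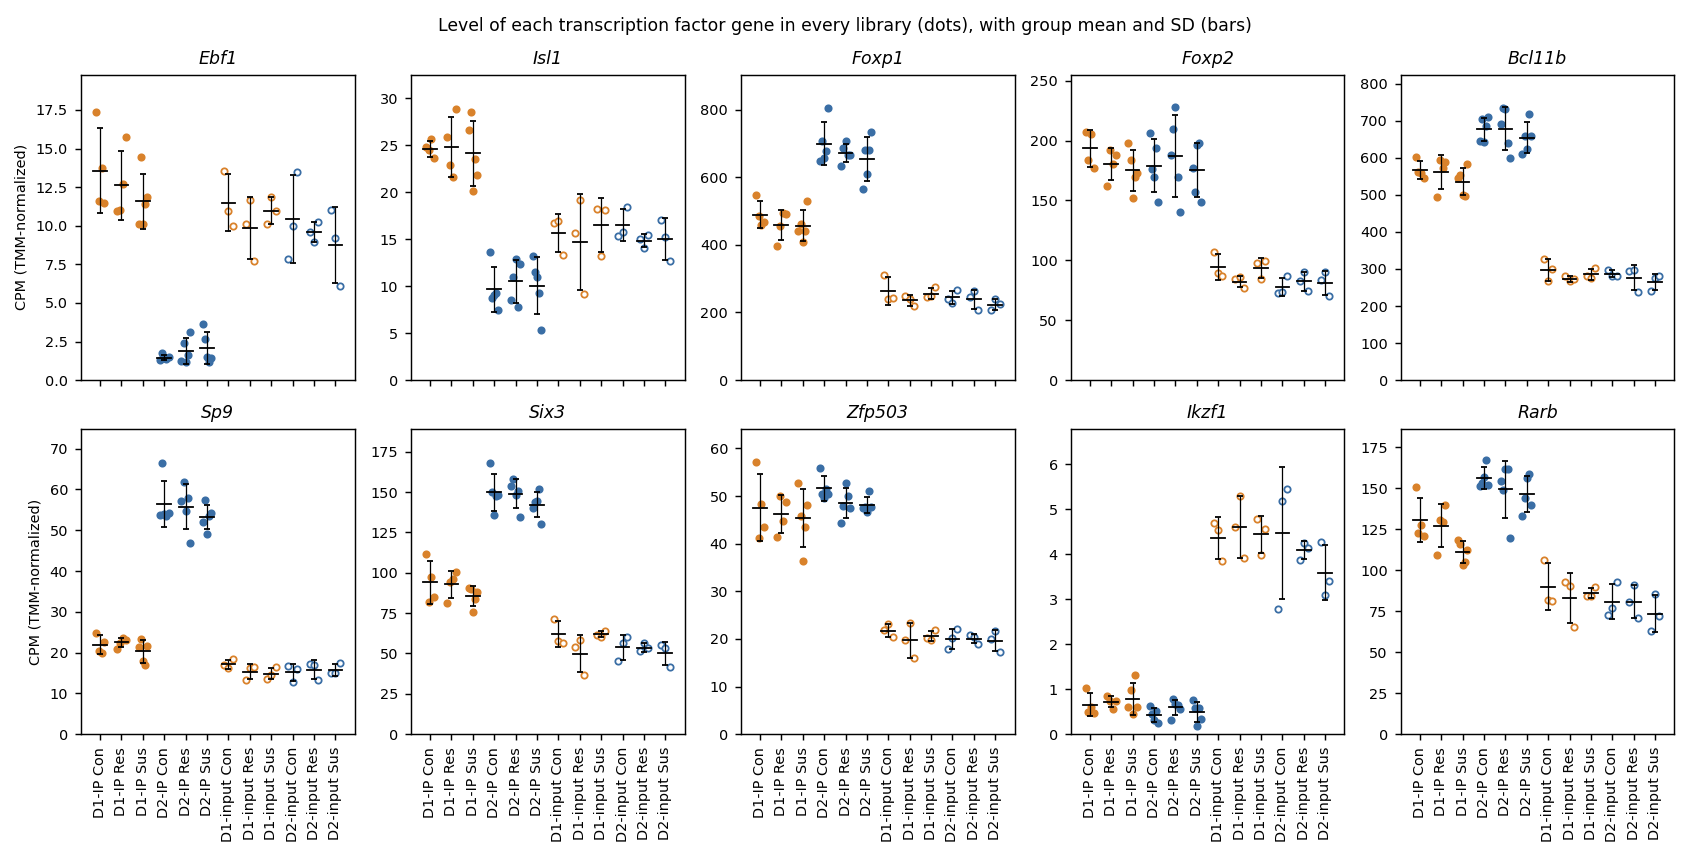
Level of each gene in every IP and input library, as TMM-normalized CPM on a linear axis from 0, with 1 dot per library and bars for the mean and SD of each group (orange, D1 line; blue, D2 line; filled, IP; open, input). *Ebf1* and *Isl1* sit higher in all D1-IPs than in any D2-IP, *Sp9*, *Six3* and *Foxp1* sit higher in all D2-IPs than in any D1-IP, and *Ikzf1* is higher in all inputs than in any IP.

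The first comparison asks how the levels differ between D1- and D2-MSNs in each stress group, with a gene called when it differed more than 1.5-fold and its adjusted p was below 0.05, the study's own limits. In Con, Res and Sus alike, 4 of the 10 genes were called, with *Ebf1* and *Isl1* higher and *Sp9* and *Six3* lower in D1-IPs, where 4.85% of all genes tested were called in Con, 5.41% in Res and 5.48% in Sus. By direction, 2 of the 10 were higher where 3.34%, 3.62% and 3.91% of all genes were, and 2 were lower where 1.51%, 1.79% and 1.57% were. The median log2 fold change of the 10 genes was -0.20 in Con, beside -0.01 over all genes. These are bulk samples, in which fewer cells of a type and less RNA per cell cannot be told apart.

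*Ebf1* (chromosome 11, 44617317 to 45008091, +), a helix-loop-helix gene needed for D1-MSN differentiation in the embryo, differed most. It measured 17.4, 11.6, 13.8 and 11.5 CPM in the D1 Con libraries and 1.32, 1.73, 1.42, 1.35 and 1.5 CPM in D2 Con. The values were 11, 11, 12.7 and 15.7 in D1 Res against 1.21, 2.40, 1.17, 1.61 and 3.10 in D2 Res, and 10.1, 14.4, 10.1, 11.4 and 11.9 in D1 Sus against 3.66, 2.67, 1.49, 1.19 and 1.46 CPM in D2 Sus. The lowest D1-IP was far above the highest D2-IP in each stress group. The fold change was 9.22 in Con (log2 3.21, SE 0.264, edgeR adjusted p = 1.43e-09), 6.66 in Res (edgeR adjusted p = 1.62e-08) and 5.39 in Sus (edgeR adjusted p = 4.05e-08).

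*Isl1* (chromosome 13, 116298281 to 116309689, −) codes for a LIM homeodomain factor of D1-MSNs that is also used by striatal cholinergic interneurons. It measured 24.8, 24.5, 25.6 and 23.6 CPM in D1 Con and 13.7, 8.73, 9.08, 9.32 and 7.48 CPM in D2 Con. In Res the values were 25.9, 22.9, 21.6 and 28.8 against 8.54, 11, 12.9, 7.75 and 12.3 CPM, and in Sus 26.6, 28.6, 20.1, 23.5 and 21.8 against 13.2, 11.5, 11, 9.33 and 5.32 CPM. The groups did not overlap, and D2-IPs kept a measurable level. The fold change was 2.52 in Con (log2 1.33, SE 0.187, edgeR adjusted p = 1.95e-05), 2.35 in Res and 2.36 in Sus. The cholinergic markers *Chat*, *Slc18a3*, *Slc5a7*, *Lhx8* and *Gbx2* summed to 8.9 to 32.7 CPM in D1-IPs and 57.8 to 124 CPM in D2-IPs, with 3 of the 5 called lower in D1-IPs in Con and none at 0, and their part in the *Isl1* level of D2-IPs was not tested.

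*Sp9* (chromosome 2, 73271925 to 73284706, +), a zinc finger gene required to make D2-MSNs, ran the other way. It measured 24.9, 20.3, 19.9 and 22.7 CPM in D1 Con and 53.8, 66.4, 54.1, 53.5 and 54.2 CPM in D2 Con. In Res the values were 20.8, 22.5, 23.5 and 23.1 against 57.2, 61.9, 54.8, 57.9 and 46.9 CPM, and in Sus 21.4, 23.5, 17.9, 16.9 and 21.7 against 52.1, 57.3, 49.1, 53.5 and 54.2 CPM. Every D2-IP lay above every D1-IP. The gene was 2.59-fold lower in D1-IPs in Con (log2 -1.37, SE 0.0907, edgeR adjusted p = 3.62e-12), 2.50-fold lower in Res and 2.66-fold lower in Sus. The gene *Cir1* overlaps *Sp9* on the other strand by 1602 bases and had a log2 fold change of -0.15 in Con (edgeR adjusted p = 0.165).

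*Six3* (chromosome 17, 85613608 to 85629302, +), which codes for a homeodomain factor of the D2 lineage, measured 112, 82.2, 97.1 and 84.9 CPM in D1 Con and 168, 149.9, 136, 148 and 148 CPM in D2 Con. Over all IPs its lowest, median and highest values were 75.5, 90.1 and 112 CPM in D1 and 130.4, 148 and 168 CPM in D2, again without overlap. It was 1.61-fold lower in D1-IPs in Con (log2 -0.69, SE 0.0773, edgeR adjusted p = 2.07e-07), 1.62-fold lower in Res and 1.68-fold lower in Sus. The antisense gene *Six3os1* overlaps *Six3* by 4791 bases and was lower too, with a log2 fold change of -0.79 in Con (edgeR adjusted p = 1.13e-06). The strand setting of the counting is not given in the sources used here, so reads of the pair cannot be told apart, nor can those of *Sp9* and *Cir1* where they overlap.

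A further 3 genes passed the adjusted p but stayed under the fold limit, all lower in D1-IPs. By the adjusted p alone 7 of the 10 thus passed in each stress group, where 13.7%, 17.2% and 17.4% of all genes did in Con, Res and Sus. *Foxp1* lay just outside that limit, at 396 to 546 CPM in D1-IPs (median 462) and 565 to 805 CPM in D2-IPs (median 679). This was 1.44-fold lower in Con, 1.47-fold in Res and 1.45-fold in Sus (edgeR adjusted p = 2.75e-05, 9.52e-06 and 4.6e-06), and the groups did not overlap. *Bcl11b*, at 495 to 601 CPM in D1-IPs and 599 to 733 CPM in D2-IPs, differed by a log2 fold change of -0.27 in Con, -0.28 in Res and -0.30 in Sus (edgeR adjusted p = 0.00383, 0.00218 and 0.000424). *Rarb* ranged from 103 to 151 CPM in D1-IPs and from 120 to 168 CPM in D2-IPs. Its groups overlapped in Res but not in Con or Sus, with log2 fold changes of -0.27, -0.24 and -0.42 in Con, Res and Sus (edgeR adjusted p = 0.0173, 0.0293 and 0.000121). General MSN markers were also lower in D1-IPs, since the 5 genes *Ppp1r1b*, *Rgs9*, *Pde10a*, *Adcy5* and *Gng7* had a median log2 fold change of -0.38 in Con, with all 5 past the adjusted p, and summed to 4415 to 6814 CPM against 5873 to 7838 CPM. Markers of cortical projection neurons ran the other way, since the 5 genes *Slc17a7*, *Tbr1*, *Neurod6*, *Neurod2* and *Emx1* summed to 388 to 1395 CPM in D1-IPs and 20.7 to 310 CPM in D2-IPs, with 4 of the 5 called higher in D1-IPs in Con and none at 0. The part of either shift in the differences of the 10 genes was not tested.

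The last 3 genes overlapped between D1-IPs and D2-IPs in every stress group. *Foxp2*, a forkhead gene known for its role in vocal learning circuits, measured 152 to 208 CPM in D1-IPs and 141 to 228 CPM in D2-IPs. Its log2 fold change was 0.10 in Con (95% interval -0.126 to 0.329, edgeR adjusted p = 0.612), -0.06 in Res and -0.02 in Sus. *Zfp503*, also called Nolz1, measured 36.4 to 57.2 and 44.3 to 56.0 CPM, with -0.13 in Con (interval -0.303 to 0.0457, edgeR adjusted p = 0.353). *Ikzf1* had 0.44 to 1.31 CPM in D1-IPs and 0.186 to 0.787 CPM in D2-IPs, and at this depth a log2 difference of 0.59 in Con had an interval from -0.20 to 1.38 (edgeR adjusted p = 0.346). A difference of that size was therefore not detectable for *Ikzf1*, whereas the intervals of *Foxp2* and *Zfp503* stayed within the fold limit.

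**Figure D2:**
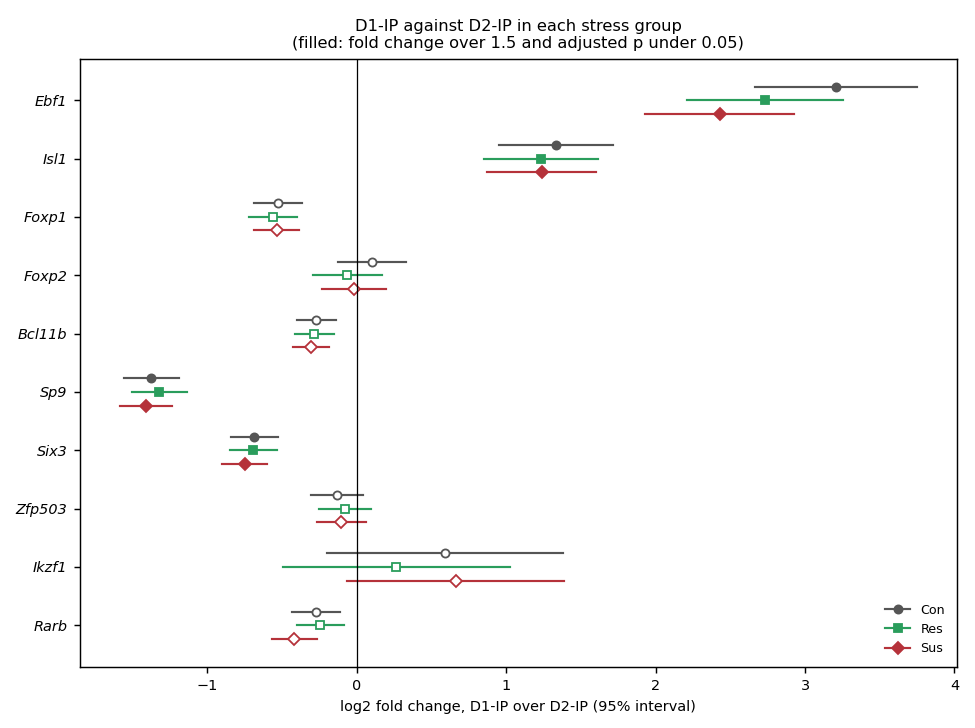
Log2 fold change of D1-IP over D2-IP for each gene in Con, Res and Sus, with 95% intervals from the edgeR fit, filled for a difference of more than 1.5-fold with an adjusted p below 0.05. The 3 stress groups give nearly the same picture, with *Ebf1* and *Isl1* to the right, *Sp9* and *Six3* to the left and the other 6 genes unfilled.

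Close relatives of the 10 genes, other striatal transcription factor genes and genes of retinoid signaling were read beside them. Of 20 paralogs, 14 were tested, and 2 were called in Con, both higher in D1-IPs. *Zfp703*, a relative of *Zfp503*, had a log2 fold change of 0.93 in Con (edgeR adjusted p = 0.000319). *Ebf2* had 3 to 13 counts in the D1 Con libraries and 6 or fewer in each D2-IP. It passed the filter on low counts only through D1-IPs, which fixed the direction of its call, and no fold is given. The median of the 14 was 0.07. Of 20 other striatal factors, 19 were tested, and 2 were higher and 1 lower in Con, with a median of -0.11. Those were *Zfp521*, which codes for a partner of Ebf1 in other cell types (log2 1.37, edgeR adjusted p = 1.4e-05), *Satb1* (0.72, edgeR adjusted p = 0.0094) and *Tshz1* (-0.94, edgeR adjusted p = 8.51e-08). All of these were called in Res and Sus as well, apart from *Satb1* in Res.

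Of 13 retinoid genes, 10 were tested, and 1 was higher and 3 were lower in D1-IPs in Con, with a median of -0.10. *Aldh1a1*, an enzyme gene that makes retinoic acid, was higher at 3.85 to 7.70 against 0.766 to 2.28 CPM (log2 1.83, edgeR adjusted p = 3.04e-07). *Rxrg*, which codes for a dimer partner of Rarb, was lower at 70.5 to 97.7 against 94.5 to 135 CPM (-0.60, edgeR adjusted p = 1.29e-05). The retinol transporter gene *Stra6* (-0.94) was lower too. The third was *Crabp2*, which had 6 or fewer counts in each D1-IP and 1 to 44 in D2-IPs. It passed the filter on low counts only through D2-IPs, which fixed the direction of its call, and no fold is given. The same 4 were called in Res and in Sus, with the same limit for *Crabp2*.

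Ribosome IP was then set against input, which asks how far each gene's RNA was enriched on the ribosomes of the tagged cells. The contrast was averaged over the stress groups. In the D1 line 7 of the 10 genes were called, 6 higher in IP and 1 lower, where 43% of all genes tested were called (13.7% higher, 29.3% lower). In the D2 line all 10 were called, 7 higher and 3 lower, where 43.6% of genes were (12.8% higher, 30.8% lower). The median log2 fold change of the 10 was 0.65 in D1 and 1.22 in D2, beside -0.04 and -0.08 over all genes.

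The genes shared by both classes were enriched in both IPs. *Zfp503* ran from 16.0 to 23.4 CPM in the 18 inputs, and its log2 fold change was 1.16 in D1 and 1.31 in D2. *Foxp2* (69.9 to 107 CPM in inputs) had 1.02 and 1.17, *Bcl11b* (238 to 326 CPM) 0.96 and 1.28, and *Foxp1* (207 to 312 CPM) 0.89 and 1.52. All of these IPs lay above all inputs. *Six3* had 0.66 in D1 and 1.49 in D2. *Sp9* was at 12.9 to 18.4 CPM in inputs, and its log2 fold change was 1.82 in D2 but 0.45 in D1, under the fold limit at an edgeR adjusted p = 2.33e-08. *Rarb* (62.9 to 107 CPM in inputs) likewise had 0.94 in D2 and, under the limit, 0.51 in D1.

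*Ebf1* and *Isl1* fell apart by class. *Ebf1* was at 6.11 to 13.5 CPM in inputs, with a median of 10.1, which overlapped the 10.1 to 17.4 CPM of D1-IPs and not the 1.17 to 3.66 CPM of D2-IPs. Its log2 fold change was 0.23 in D1 (95% interval -0.0531 to 0.507, edgeR adjusted p = 0.127) and -2.41 in D2, or 5.32-fold lower. *Isl1*, at 9.15 to 19.2 CPM in inputs, was 1.57-fold higher in D1-IPs and 1.53-fold lower in D2-IPs, and its D2-IPs overlapped the inputs. The *Isl1* call in D2 lost the fold limit without any single 1 of 11 libraries (D2 Con replicates 2 and 5, D2 Res 4, D2 Sus 3 and 5, and the inputs D2 Con 3, D2 Res 1, 2 and 3 and D2 Sus 1 and 2), where the log2 value of -0.61 became -0.53 to -0.58, and with the pool of mice as a replicate block it was -0.47. The D1 call was lost without D1 Res input replicate 3, at 0.57.

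*Ikzf1* had the reverse pattern to the shared genes, with 2.78 to 5.46 CPM in inputs, above every IP. It was 6.15-fold lower in D1-IPs and 7.98-fold lower in D2-IPs (log2 -2.62 and -3.00). All 7 of the microglia markers *Cx3cr1*, *P2ry12*, *Tmem119*, *Csf1r*, *C1qa*, *Itgam* and *Aif1* were called lower in both IPs, summing to 224 to 276 CPM in inputs and 10.7 to 22.9 CPM in IPs, with none at 0. The 6 mural cell markers *Pdgfrb*, *Rgs5*, *Abcc9*, *Kcnj8*, *Vtn* and *Higd1b* were called lower as well, at 112 to 148 CPM in inputs and 6.92 to 16.7 CPM in IPs, where *Kcnj8* and *Higd1b* had 0 counts in some libraries. Whether such cells carry the input level of *Ikzf1* or *Ebf1* was not tested.

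The difference between the lines in this enrichment was tested itself, with D1 minus D2 as the contrast and an adjusted p under 0.05 as the call. It was called for 7 of the 10 genes, where 25.4% of all genes were called. The log2 difference was 2.64 for *Ebf1*, 1.27 for *Isl1*, -1.37 for *Sp9*, -0.83 for *Six3*, -0.62 for *Foxp1*, -0.44 for *Rarb* and -0.32 for *Bcl11b*. It was not called for *Foxp2* (-0.14), *Zfp503* (-0.14) and *Ikzf1* (0.37), with edgeR adjusted p = 0.311, 0.218 and 0.285.

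**Figure D3:**
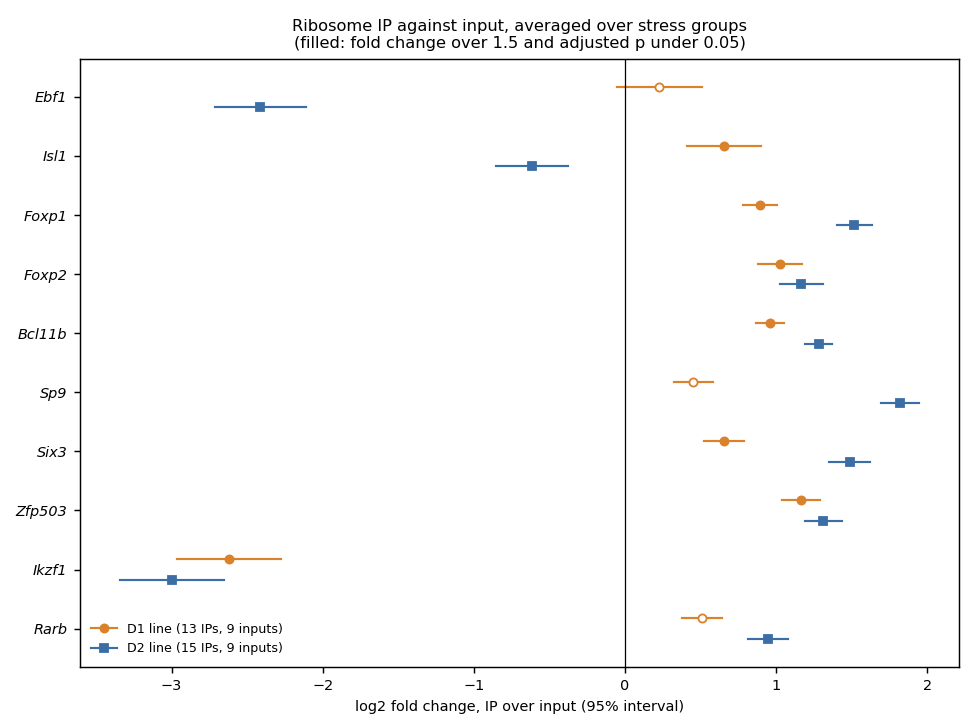
Log2 fold change of IP over input for each gene in the D1 line (13 IPs, 9 inputs) and the D2 line (15 IPs, 9 inputs), averaged over the stress groups, with 95% intervals and filled for a difference of more than 1.5-fold with an adjusted p below 0.05. The shared factors lie to the right of 0 in both lines, *Ebf1* and *Isl1* part by line, and *Ikzf1* lies far to the left in both.

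Between the inputs of the lines, the tissue levels could not be separated. None of the 10 genes was called between D1-inputs and D2-inputs by edgeR or DESeq2, where 0.0199% of all genes were called by edgeR. At an unadjusted p under 0.05 edgeR gave 1 of the 10, where 5.01% of all genes passed. It was *Foxp2*, at a log2 difference of 0.16 (edgeR adjusted p = 0.979). For *Ebf1* the difference was 0.16 (95% interval -0.0809 to 0.407) and for *Sp9* 0.02 (interval -0.135 to 0.166), which leaves out differences as large as those between the IPs. Stress groups were also compared in inputs, and no member was called at an unadjusted p under 0.05 by edgeR or DESeq2, where edgeR called 4.38% of all genes in Sus vs Con, 3.19% in Res vs Con and 5.28% in Sus vs Res.

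The study's main question was how stress groups differ within D1- and D2-MSNs, and there genes were called at an unadjusted p under 0.05, as the study did. In D1-IPs 1 of the 10 genes was called in Sus vs Con, where 5.24% of all genes were, none in Res vs Con (2.05% of genes) and 1 in Sus vs Res (4.08%). That gene was *Rarb* in both, and it was lower in Sus, as were 2.82% and 2.25% of all genes. With 10 genes, 1 call is near the share of all genes. No member passed an adjusted p under 0.05, where 0% of genes did in Sus vs Con and in Sus vs Res and 0.00703% in Res vs Con.

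*Rarb* (chromosome 14, 16430839 to 16819156, −), through which retinoic acid acts on striatal neurons, measured 151, 123, 128 and 121 CPM in D1 Con, 109, 131, 129 and 140.0 CPM in D1 Res, and 118, 116, 103, 105 and 112 CPM in D1 Sus. All 5 D1 Sus libraries lay below all 4 D1 Con libraries, whereas 1 of the 4 D1 Res libraries lay among them. The log2 fold change of Sus vs Con was -0.24 (SE 0.0777, 95% interval -0.397 to -0.0798, edgeR adjusted p = 0.86), and that of Sus vs Res was -0.20 (SE 0.0778, edgeR adjusted p = 1). Both calls rest on a single library. Without D1 Con replicate 1 the Sus vs Con value was -0.16, and without D1 Res replicate 4 the Sus vs Res value was -0.15, and the unadjusted edgeR p was then above 0.05 in each (adjusted p = 0.994 and 1). Without D1 Con replicate 2 or 4, *Six3* was called too in Sus vs Con, at -0.20 and -0.18, and without D1 Sus replicate 5 *Foxp1* was, at -0.16. In Sus vs Res, *Six3* was called without D1 Res replicate 1 (-0.18) and *Sp9* without D1 Sus replicate 2 (-0.21).

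Other MSN genes moved with *Rarb* in D1 Sus. The 4 D2 markers were all lower than in Con at an unadjusted p under 0.05, with a median log2 fold change of -0.23, and summed to 2061 to 2607 CPM in D1 Sus against 2370 to 3470 CPM in D1 Con. Of the 5 general MSN markers 2 were lower, and of the 4 D1 markers none was called, with medians of -0.10 and -0.12. The 9 other members had log2 fold changes between -0.23 (*Ebf1*) and 0.26 (*Ikzf1*), and the median over all 10 was -0.11 beside 0.00 over all genes. The part of these shifts in the *Rarb* value was not tested. *Top2b*, which overlaps *Rarb* on the other strand by 4624 bases, had a log2 fold change of 0.07 (95% interval -0.0514 to 0.194).

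Of the retinoid genes, 2 of 10 were lower in D1 Sus than in D1 Con, where 2.82% of all genes were. *Rxrg* had a log2 fold change of -0.21 and *Rxra* of -0.12. Against D1 Res 3 of 10 were lower, where 2.25% of all genes were, with *Rxra* at -0.17, *Rxrg* at -0.18 and *Rxrb* at -0.10. These calls are at an unadjusted p under 0.05, no retinoid gene was higher in either comparison, and none passed an adjusted p under 0.05. Of the paralogs, *Ebf2* and *Ebf3* were higher in D1 Sus than in D1 Con at an unadjusted p under 0.05, where 344 of all 14224 genes were. Their edgeR adjusted p = 0.86 for both. They had no more than 63 counts in any D1-IP, and no fold is given.

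In D2-IPs none of the 10 genes was called by edgeR, where 3.6% of all genes were called in Sus vs Con, 2.94% in Res vs Con and 1.62% in Sus vs Res. *Rarb* measured 152, 154, 157, 168 and 152 CPM in D2 Con and 133, 144, 157, 159 and 140.1 CPM in D2 Sus, which overlap (log2 -0.09, 95% interval -0.242 to 0.0563). *Ebf1* came nearest to a call, since 2 of the 5 D2 Sus libraries, at 3.66 and 2.67 CPM, lay above all D2 Con libraries and the other 3 did not. Its log2 fold change was 0.54 (SE 0.282, 95% interval -0.0361 to 1.12), and the unadjusted p was above 0.05 by edgeR and below it by DESeq2. It passed without D2 Sus replicate 3, 4 or 5, at 0.65 to 0.69. D2 Sus replicate 1, the highest for *Ebf1*, also had the lowest sum of D2 markers among D2-IPs (5646 CPM). Among D2-IPs its sum of cholinergic markers was the highest (124 CPM). Its sums of mural (8.39 CPM), microglia (19.1 CPM) and D1 markers (486 CPM) were at neither end of the D2-IPs. In D2 Sus replicate 2 the sums of D2 and cholinergic markers (6666 and 80.8 CPM) lay within the range of D2 Con. The part of these markers in the *Ebf1* value was not tested.

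Whether the stress difference itself differed between D1-IPs and D2-IPs was tested by the interaction, at an adjusted p under 0.05. No gene of the 14224 was called by edgeR in any of the 3 stress contrasts (0% in each), and none of the 10 by DESeq2. At an unadjusted p under 0.05 edgeR gave 1 of the 10 in Sus vs Con (1.74% of all genes), 0 in Res vs Con (2.31%) and 0 in Sus vs Res (1.95%). That 1 was *Ebf1*, at -0.78 (SE 0.361, edgeR adjusted p = 1). For *Rarb* the difference was -0.15 in Sus vs Con (95% interval -0.363 to 0.0726) and -0.18 in Sus vs Res (interval -0.393 to 0.0428), so that its change in D1-IPs was not shown to differ from that in D2-IPs.

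**Figure D4:**
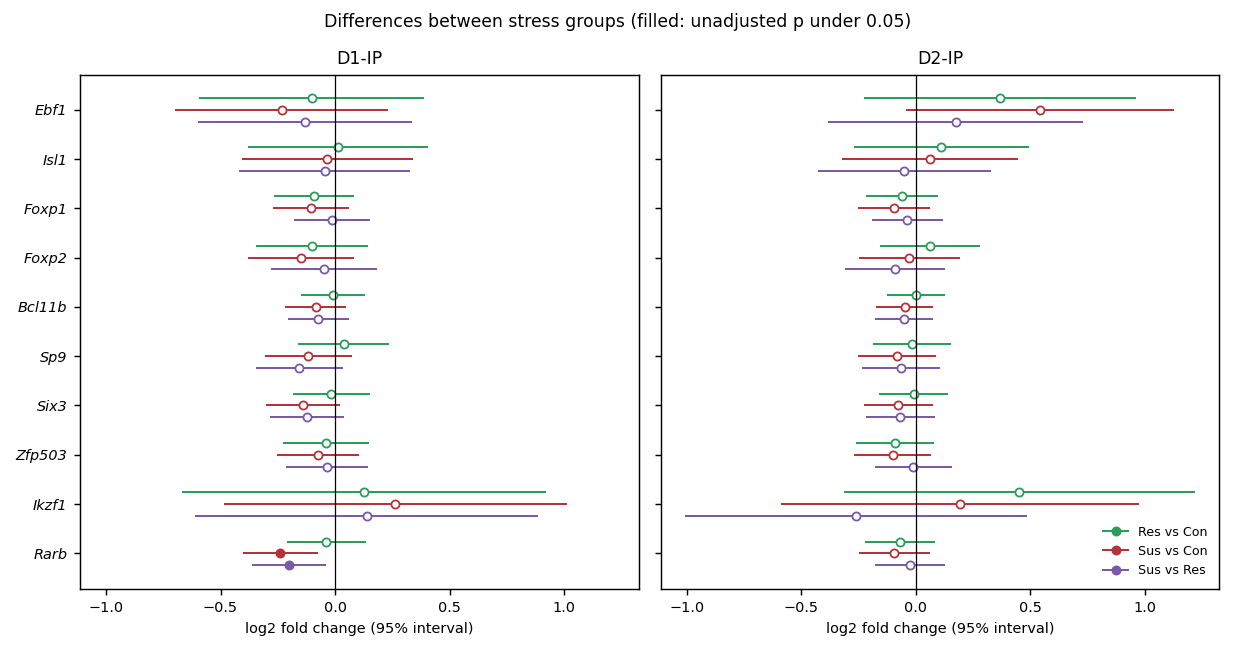
Log2 fold change between stress groups for each gene in D1-IPs (left) and D2-IPs (right), with 95% intervals from the edgeR fit and filled where the unadjusted p was under 0.05. The filled points are those of *Rarb* in D1-IPs for Sus vs Con and Sus vs Res, and the wide intervals are those of the genes with the fewest counts, *Ikzf1* and *Ebf1*.

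The last comparison set the libraries labelled Sirt1-KO against D1 Con, in a table normalized on its own. *Sirt1* itself measured 13.1, 16.6, 14.8 and 14.4 CPM in D1 Con and 15.2, 16.2, 13.2 and 10.2 CPM in Sirt1-KO, which overlap (log2 -0.10, SE 0.13, edgeR adjusted p = 0.767). Counts over the whole gene do not show whether single exons were removed, so they do not check the label. None of the 10 genes passed a fold change of 1.5 with an adjusted p under 0.05 by edgeR or DESeq2, where 0.705% of all genes were called by edgeR. At an unadjusted p under 0.05 3 of the 10 passed, where 16.6% of all genes did. All 10 log2 fold changes were below 0, with a median of -0.25 beside 0.00 over all genes.

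*Isl1* and *Foxp2* passed the adjusted p without the fold limit, both lower, where 1.8% of all genes passed it and 1.15% were lower. *Isl1* measured 23.5, 23.2, 24.3 and 22.4 CPM in D1 Con and 20.2, 15.9, 16.3 and 17.8 CPM in Sirt1-KO (log2 -0.41, SE 0.0842, edgeR adjusted p = 0.0301). *Foxp2* measured 196, 174, 195 and 169 CPM against 159.8, 133, 132 and 153 CPM (log2 -0.34, SE 0.0762, edgeR adjusted p = 0.0419). *Rarb* did not pass, at 142, 116, 121 and 115 CPM in D1 Con against 87.9, 92.7, 83.1 and 113 CPM in Sirt1-KO (log2 -0.40, edgeR adjusted p = 0.0692). Across the alternatives the edgeR or DESeq2 adjusted p ran from 0.00136 to 0.122 for *Isl1* and from 0.000325 to 0.153 for *Foxp2*, and leaving out any library but Sirt1-KO replicates 1 and 5 took each of them above 0.05, at log2 -0.37 to -0.43 for *Isl1* and -0.31 to -0.38 for *Foxp2*.

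*Ebf1* measured 16.4, 11, 13 and 10.9 CPM in D1 Con and 8.24, 6.27, 7.11 and 16.5 CPM in Sirt1-KO. Of the 4 Sirt1-KO libraries 3 lay below all D1 Con libraries and replicate 5 lay above them. The log2 fold change of -0.45 did not pass (SE 0.309, edgeR adjusted p = 0.515), whereas without Sirt1-KO replicate 5 it was -0.84 (edgeR adjusted p = 0.00827) and with the replicate number as a block -0.89. The same library was the highest of its group for *Six3*, *Foxp1*, *Bcl11b*, *Sp9*, *Zfp503* and *Rarb*.

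MSN markers were lower in these libraries as well. The 4 D1 markers had a median log2 fold change of -0.34, with *Pdyn* (-0.37, edgeR adjusted p = 0.0354) and *Tac1* (-0.36, edgeR adjusted p = 0.0433) past the adjusted p, and the 4 D2 markers and 5 general MSN markers had medians of -0.34 and -0.32 with none past it. Cholinergic markers summed to 4.28 to 9.16 CPM in Sirt1-KO and 10.6 to 13.7 CPM in D1 Con, and the 5 markers of cortical projection neurons to 829.8 to 1588 CPM and 367 to 1017 CPM. The 6 markers of GABA interneurons (*Pvalb*, *Sst*, *Npy*, *Nos1*, *Nkx2-1*, *Lhx6*) summed to 157 to 192 CPM in Sirt1-KO and 126 to 156 CPM in D1 Con, with *Npy* (log2 0.46) and *Nos1* (0.56) higher past the adjusted p and none at 0. The 7 microglia markers summed to 9.96 to 11.1 CPM and 11.5 to 13.9 CPM, with none past it. The part of these shifts in the values of the 10 genes was not tested. None of the paralogs, striatal factors or retinoid genes was called.

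**Figure D5:**
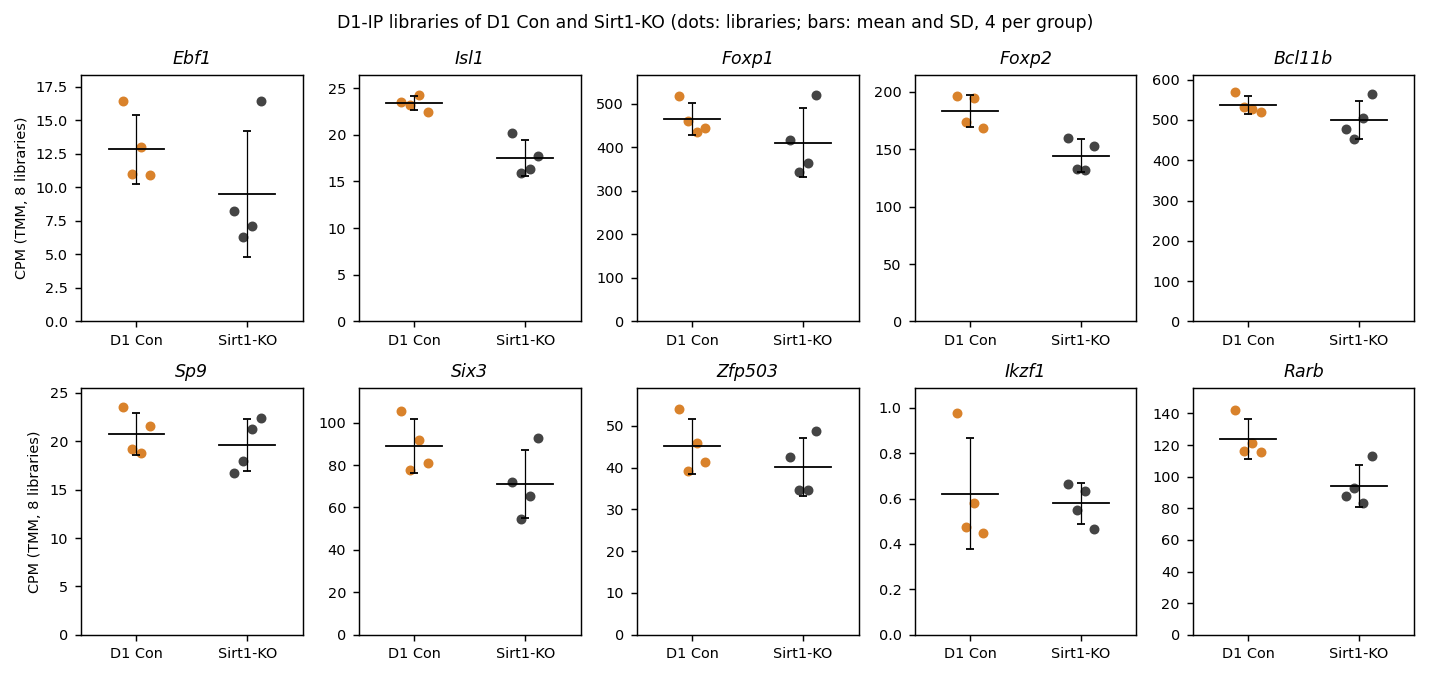
Level of each gene in the 4 D1 Con and the 4 Sirt1-KO libraries, as TMM-normalized CPM within these 8 libraries on a linear axis from 0, with dots for libraries and bars for the mean and SD. *Isl1* and *Foxp2* are lower in Sirt1-KO past the adjusted p but under the fold limit, and 1 Sirt1-KO library stands high for *Ebf1*.

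Over the 46 IP and input libraries, the genes with the most similar log2 CPM were found for each factor by Pearson's r, a description only, since the libraries share lines, pools and the division into IP and input. *Ebf1* was followed most closely by *Gfra1* (r = 0.960), *Lingo2* and *Cntnap3*. For *Isl1* these were *Pdyn* (r = 0.911), *Slc35d3* and *Drd1*, which are D1-MSN genes, and for *Sp9* they were *Gpr6* (r = 0.973), *Gpr52* and *Adora2a*, which are D2-MSN genes. *Foxp1* was followed by *Foxo1* (r = 0.992) and *Hpca*, *Bcl11b* by *Plcl2* (r = 0.993), *Pde2a* and *Plppr4*, and *Six3* by *Rcn1* (r = 0.985) and *P2ry1*. *Foxp2* was followed by *Klhl13* (r = 0.979), *Kcnd2* and *Lpl*, *Zfp503* by *Dclk3* (r = 0.988), *Cacna2d3* and *Lpl*, and *Rarb* by *Rasd2* (r = 0.978), *Adcy5* and *Kcnab1*. The nearest genes of *Ikzf1* were *Rhog* (r = 0.973) and *Col9a3*.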

How the data were processed

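The authors trimmed reads with cutadapt, checked them with FastQC, used STAR for alignment to mm10, HTSeq for counting and DESeq2 for testing. The strand setting and the library's place among the sequencing sets are not given in the sources used here. The deposited values are raw counts per gene in a table of IPs and inputs and a table for Sirt1-KO, whose D1 Con counts are the same. The 2 columns without a matching sample description were not used. Of each library, 5 entries name no gene (18.0% to 40.0% of reads) and were left out. CPM, fold changes and p-values come from edgeR 4.0.16 under R 4.3.3 (TMM, minimum count 10 and total 15, quasi-likelihood test with robust spread, Benjamini-Hochberg adjustment over all genes), with 28 IPs (14224 genes), 46 IPs and inputs (15404), 18 inputs with line and stress as terms (15063) or 8 libraries (13626) in a fit. P-values are two-sided. DESeq2 1.42.0 was an alternative. IPs and inputs of a pool are paired by the labels (18 pairs, correlations of deviations -0.19 to 0.51, 3 over 0.1). The fits were tested on simulated data. The 10 genes, the gene lists and the tests were chosen with earlier results of these data known. Named genes were the 10, list genes past a threshold, up to 3 of the genes most similar to each, markers that move with them and Sirt1. Some genes of these lists are not reported here.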

Additional observations from a re-analysis of the deposited data

Results flagged for a closer look

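A sample far from the others of its group was found in 2 of the 70 groups tested, where chance gives about 1 in 20. D2 Con replicate 2 was high for *Sp9*, at 66.4 CPM, with a gap to the next library of 0.946 of the group's range, and D2 Sus replicate 4 was high for *Zfp503*, at 51.1 CPM, with a gap of 0.77 of the range. Neither library changed a call of that gene when left out.

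The enrichment of IP over input differed between the lines for 7 genes by the test of the difference itself. D1 minus D2 was 2.64 for *Ebf1* and 1.27 for *Isl1* on the log2 scale (edgeR adjusted p = 1.12e-12 and 4.43e-07). It was -1.37 for *Sp9*, -0.83 for *Six3*, -0.62 for *Foxp1*, -0.44 for *Rarb* and -0.32 for *Bcl11b* (edgeR adjusted p = 1.13e-15, 5.12e-09, 4.9e-08, 0.000351 and 0.00011).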

How the results depend on the processing

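Other size factors, filters on low counts, DESeq2, fewer libraries in the fit and a replicate block left 1175 of 1184 log2 fold changes of the 10 genes on the same side of their threshold, and leaving out a library left 2914 of 2940. No called value changed sign, whereas 5 and 176 values that were not called did. Without the fold limit 7 of the 10 genes passed between D1-IPs and D2-IPs in Con, Res and Sus, and 2 in Sirt1-KO. With an adjusted p in place of the unadjusted one, D1 Sus vs Con and Sus vs Res went from 1 to 0. DESeq2 gave 1 in D2 Sus vs Con, and an unadjusted p gave 1 in the interaction of Sus vs Con. With a mean of at least 50 counts as the filter, 4 of the 10 were called between D1-IP and input, since *Ikzf1* was removed and *Isl1* and *Six3* fell to 0.55, under the fold limit.

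Leaving out each library in turn gave 0 to 2 genes in D1 Sus vs Con and in Sus vs Res, 0 to 1 in D2 Sus vs Con and in Sirt1-KO, 4 to 5 between D1-IPs and D2-IPs in Res and Sus, where *Foxp1* passed without D1 Res replicate 3 or 4 or D1 Sus replicate 5, 6 to 7 for D1-IP and 9 to 10 for D2-IP against input. Over all genes, Sirt1-KO calls ran from 37 to 249 without a library, and numbered 233 by DESeq2 against 96 by edgeR.

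The replicate block of equal numbers gave 2 genes in D1 Sus vs Con (*Rarb*, and *Foxp1* at -0.15) and 1 in Sirt1-KO (*Ebf1* at -0.89, with 567 genes called in all). Same-numbered IPs of 1 line in different stress groups correlated at -0.10 to 0.25 (7 of 27 pairs over 0.1). D1-IPs correlated with D2-IPs at -0.10 to 0.21 (6 of 13), and Sirt1-KO with D1 Con in 0 of 3 pairs over 0.1. The IPs numbered 5 had 23.8% to 28.3% of reads on entries naming no gene, against a median of 20.7% over the 28 IPs. D2 Con replicate 2 and D2 Sus replicate 2 lay in that range too. The labels do not say what the number stands for, and whether it marks a shared step was not tested. Blocking by pool of mice gave 9 of 10 in D2-IP against input, as did those 36 libraries without the block, an alternative chosen after seeing the data, and changed no other member's call. Depth limits *Ikzf1* most.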
